A study of Homo sapiens with 6 samples.

Results

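The genes described here are the interleukin-6 family receptor chain IL6ST, which encodes gp130, and 9 genes grouped with its signalling route, in Karpas-45, a cell line established from human T-cell acute lymphoblastic leukemia. The 10 genes are the receptors IL6ST and IL6R, the kinases JAK2 and TYK2, the transcription factor STAT3, the feedback inhibitors SOCS1, SOCS2, SOCS3 and CISH, and the kinase PIM1. They are 10 of 78932 gene identifiers counted, and 9 of them were among the 17677 genes with enough reads to be tested. The set was chosen because IL6ST, STAT3 and SOCS3 were all higher in the cells with the MEF2C hairpin in these same libraries. The differences of its members are therefore descriptions, given without p-values. How many were past a threshold is printed, with its range over other fits, and nothing is read from it.

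Karpas-45 cells were transduced with lentivirus that carried a short hairpin RNA linked to GFP. The MEF2C hairpin group carried 1 hairpin against the transcription factor gene MEF2C, and the scramble group carried a scramble hairpin. The labels give both groups the genotype WT and no further treatment. GFP-positive cells were sorted 120 hours after transduction, virus had been made in HEK293T cells, and each group held 3 libraries that the labels call technical replicates. Every p-value and SD here therefore measures the spread between such replicates of 1 line and 1 hairpin.

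Cytokines of the interleukin-6 family bind a receptor that shares the gp130 chain, often together with a ligand-specific chain such as IL6R. Receptor-bound JAK kinases then phosphorylate gp130, STAT3 docks there, is phosphorylated in turn and moves into the nucleus as a transcription factor. SOCS proteins are made in response to STATs and shut the receptor off again, so their transcripts are used as a readout of the route; the messenger RNA says nothing directly about phosphorylation. In T-lineage cells gp130 is known mainly for its part in the differentiation and survival of T cells, and CISH, SOCS2 and PIM1 are also known as targets of STAT5, which cytokines of the common gamma chain activate.

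Gene counts summed to between 50991704 and 97077335 reads in the MEF2C hairpin libraries and between 45560303 and 63228784 reads in the scramble libraries. MEF2C itself had 2, 0 and 0 reads in MEF2C hairpin replicates 1 to 3, against 2, 1 and 0 reads in scramble replicates 1 to 3. These counts do not exceed 3 reads in any library, so MEF2C was at the edge of detection in the scramble cells as well. Whether the hairpin lowered its target cannot be read from these counts. MEF2C hairpin replicate 3 stood apart in that 16.1% of its reads aligned to more than 1 place, against 3.56 and 3.82% in the other MEF2C hairpin libraries and 3.67 to 6.86% in the scramble libraries. CD3E, which defines T-lineage cells, had 567 to 588 CPM (reads per 1000000 gene reads, scaled between libraries) in MEF2C hairpin cells and 582 to 603 CPM in scramble cells. The 14 T-lineage markers summed to 4485 to 4577 CPM in MEF2C hairpin cells, against 4329 to 4433 CPM in scramble cells; with edgeR 9 of them rose and 1 fell, against 13.5% and 15.3% of all tested genes. CD5 had 20.3, 17.5 and 18.1 CPM in MEF2C hairpin cells and 8.12, 9.28 and 8.82 CPM in scramble cells, and DNTT had 10.8 ± 0.391 CPM in MEF2C hairpin cells and 4.54 ± 1.18 CPM in scramble cells. CD7 had 59.7 ± 0.634 CPM in MEF2C hairpin cells and 39.6 ± 1.84 CPM in scramble cells, and GATA3, the 1 that fell, had 190.1 ± 5.78 CPM in MEF2C hairpin cells and 222 ± 6.59 CPM in scramble cells. CD5, DNTT, CD7 and GATA3 are named after their values were seen. The median log2 fold change of the 14 markers was 0.09, and 4 of them were not called. RAG1, among those 4, had 0.457 ± 0.0428 CPM in MEF2C hairpin cells and 0.741 ± 0.453 CPM in scramble cells (edgeR adjusted p = 0.144). The part of the T-lineage markers in the members' differences was not tested.

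Markers of other cell types were low next to these, and PODXL, at 24.0 ± 0.868 CPM in MEF2C hairpin cells and 21.6 ± 0.420 CPM in scramble cells, made up most of the largest such sum. The 8 myeloid markers, of which 3 could be tested, summed to 1.64 to 2.61 CPM in MEF2C hairpin cells and 1.82 to 2.21 CPM in scramble cells, with FCGR3A at 0 reads in all 6 libraries. The 5 B-lineage markers, of which 2 could be tested, summed to 4.04 to 4.18 CPM in MEF2C hairpin cells and 3.03 to 3.60 CPM in scramble cells. PAX5 had 1 read in each group, and MS4A1 had 1 read in MEF2C hairpin cells and 0 in scramble cells. The 6 embryonic kidney markers, of which 3 could be tested, summed to 26.0 to 27.1 CPM in MEF2C hairpin cells and 23.9 to 25.7 CPM in scramble cells, with EPCAM at 0 in all. With edgeR 2 of the 3, PODXL and GPC3, rose and 1, CRABP2, fell, against 13.5% and 15.3% of all tested genes. GPC3 had 0.660 ± 0.101 CPM in MEF2C hairpin cells and 0.341 ± 0.104 CPM in scramble cells. CRABP2 had 2.04 ± 0.302 CPM in MEF2C hairpin cells and 2.93 ± 0.454 CPM in scramble cells. The 4 erythroid markers, of which 1 could be tested, summed to 0.709 to 1.69 CPM in MEF2C hairpin cells and 0.533 to 5.95 CPM in scramble cells. The highest sum came from HBB in scramble replicate 1, at 5.63 CPM, against 0.605 and 0.500 CPM in scramble replicates 2 and 3. The part of the B-lineage and embryonic kidney markers, whose summed ranges were higher in the MEF2C hairpin cells, was not tested. In bulk RNA, fewer cells with a transcript and less of it per cell cannot be told apart.

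The start regions of 9 of the 10 genes were available from RefSeq on GRCh38.p14 as 13 windows of 300 bases, each from 250 bases before an annotated start to 50 bases after it, and 4 are shown. CISH is shown because it alone held the STAT motif searched for, and IL6ST, STAT3 and SOCS3 because their levels were higher together in the MEF2C hairpin cells. All 4 lie on the minus strand and are written 5′ to 3′ in the direction of transcription. Capitals mark TTCNNNGAA, the palindromic element that STAT dimers recognise, and, in STAT3 and SOCS3, the shorter TTCNNGAA. CISH is chr3:50611725-50612024, SOCS3 is chr17:78360876-78361175, STAT3 is chr17:42388393-42388692 and IL6ST is chr5:55994914-55995213.
CISH: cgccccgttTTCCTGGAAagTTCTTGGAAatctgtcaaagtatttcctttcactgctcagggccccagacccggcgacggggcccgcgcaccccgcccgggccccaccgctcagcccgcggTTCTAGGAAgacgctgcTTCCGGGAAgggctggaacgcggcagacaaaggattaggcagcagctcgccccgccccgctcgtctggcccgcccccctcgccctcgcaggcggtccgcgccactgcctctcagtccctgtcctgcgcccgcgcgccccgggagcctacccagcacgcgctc
SOCS3: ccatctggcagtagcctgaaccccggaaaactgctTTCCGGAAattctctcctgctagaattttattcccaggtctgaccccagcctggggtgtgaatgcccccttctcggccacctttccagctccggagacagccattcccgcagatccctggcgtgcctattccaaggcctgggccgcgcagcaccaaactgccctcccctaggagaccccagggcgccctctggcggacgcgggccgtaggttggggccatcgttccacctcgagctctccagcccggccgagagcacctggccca
STAT3: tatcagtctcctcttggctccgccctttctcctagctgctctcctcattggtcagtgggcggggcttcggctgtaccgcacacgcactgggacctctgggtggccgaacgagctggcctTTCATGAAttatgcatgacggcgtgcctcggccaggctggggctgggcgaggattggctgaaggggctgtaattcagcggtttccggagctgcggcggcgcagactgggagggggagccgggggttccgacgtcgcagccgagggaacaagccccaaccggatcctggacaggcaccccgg
IL6ST: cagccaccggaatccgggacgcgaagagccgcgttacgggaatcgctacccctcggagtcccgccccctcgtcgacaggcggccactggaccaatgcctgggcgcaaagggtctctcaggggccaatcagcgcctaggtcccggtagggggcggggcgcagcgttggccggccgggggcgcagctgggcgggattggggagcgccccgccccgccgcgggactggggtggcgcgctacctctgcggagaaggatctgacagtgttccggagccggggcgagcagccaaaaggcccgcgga

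The CISH window held 4 matches to TTCNNNGAA, starting at 241, 230, 129 and 112 bases before the start, arranged as a pair far from the start and a pair nearer to it. These are TTCCTGGAA, TTCTTGGAA, TTCTAGGAA and TTCCGGGAA. A match on one strand is a match on the other, since the motif is its own reverse complement. TTCNNNGAA occurred in 7.66% of 35116 windows of all genes in the table, and at least 4 matches occurred in 7 windows, which is 0.0199%. The cut of 4 is the number that CISH itself held, so this share is a description only. Of the 13 windows of the 9 genes, CISH was the 1 with a match. The stricter TTCCNGGAA, which overlaps TTCNNNGAA, matched at 2 of these places in CISH and occurred in 1.15% of all windows.

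In SOCS3 the letters TTCCGGAA stood 215 bases before the start, in STAT3 TTCATGAA stood 131 bases before it, and in IL6R TTCACGAA stood 248 bases before it. This shorter spacing, TTCNNGAA, was searched after seeing the data and occurred in 7.74% of all windows and 3 of the 13. A spacing wider by 1 base than TTCNNNGAA, also added after seeing the data, occurred in 6.44% of all windows and the MEF2 consensus, searched on both strands, in 2.99%, each in 0 of the 13. A match is a description of the letters, and no match says only that they are absent from these windows. Neither of the 2 SOCS3 windows spans the start of the SOCS3 gene in GENCODE 29, nor does the PIM1 window span that of PIM1. The IL6ST window held no match to any of the motifs.

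IL6ST was 1.47 times as high in the MEF2C hairpin cells. The gene (ENSG00000134352.21) runs from 55935095 to 55994993 on the minus strand of chromosome 5 in GRCh38. Its level was 13.8, 13.5 and 15.2 CPM in MEF2C hairpin replicates 1 to 3, against 10.2, 9.62 and 9.12 CPM in scramble replicates 1 to 3. Every MEF2C hairpin library was above every scramble library. The means were 14.2 ± 0.893 CPM in MEF2C hairpin cells and 9.63 ± 0.514 CPM in scramble cells (SD, n = 3 in each group, as for all values with ± here). This gave a log2 fold change of 0.55 (SE 0.0734). These means rest on 789 to 1334 reads per MEF2C hairpin library and 429 to 633 reads per scramble library. A gene annotated on the opposite strand overlaps 8.58% of its exon bases, and how reads there were counted depends on the strand setting, which the labels do not state.

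IL6R, the chain that binds interleukin-6 itself, was at the edge of detection. The gene (ENSG00000160712.13) runs from 154405193 to 154469450 on the plus strand of chromosome 1. It had 2 reads in each MEF2C hairpin library, against 6, 1 and 0 reads in scramble replicates 1 to 3. Summed over libraries this is 0.0290 CPM in MEF2C hairpin cells (exact Poisson 95% interval 0.0106 to 0.0631) and 0.0413 CPM in scramble cells (0.0166 to 0.0851). The intervals overlap and cover counting error only, no difference was detectable at this depth, and IL6R is the 1 member that was not tested. IL6ST was thus detected in all 6 libraries, while IL6R was at or under the floor of 3 reads in 5 of them.

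JAK2 and TYK2 encode kinases that bind cytokine receptor tails, gp130 among them. JAK2 (ENSG00000096968.14, plus strand of chromosome 9, 4984390 to 5128183) measured 25.8, 24.5 and 24.5 CPM in MEF2C hairpin replicates 1 to 3, against 22.1, 22.2 and 23.2 CPM in scramble replicates 1 to 3. The MEF2C hairpin libraries were all above the scramble libraries, by a small margin. Means were 24.9 ± 0.726 CPM in MEF2C hairpin cells and 22.5 ± 0.583 CPM in scramble cells, a log2 fold change of 0.15 (SE 0.0513).

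TYK2 differed by little between the groups. The gene (ENSG00000105397.16, minus strand of chromosome 19, 10350529 to 10380676) measured 117, 117 and 116 CPM in MEF2C hairpin replicates 1 to 3, against 119, 125 and 120 CPM in scramble replicates 1 to 3. All MEF2C hairpin libraries were below all scramble libraries. The means of 117 ± 0.742 CPM in MEF2C hairpin cells and 122 ± 3.30 CPM in scramble cells gave a log2 fold change of -0.06 (SE 0.0266), the 1 member whose groups were apart in that direction. That value ran from -0.07 to -0.04 when single libraries were left out, and it was -0.04 without scramble replicate 2.

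STAT3, the transcription factor that gp130 activates, was the most abundant member in CPM. The gene (ENSG00000168610.17) runs from 42313324 to 42388568 on the minus strand of chromosome 17. It measured 152, 149 and 150 CPM in MEF2C hairpin replicates 1 to 3, against 133, 126 and 130 CPM in scramble replicates 1 to 3. The groups did not overlap, and the replicates of each group lay close together. Mean levels were 150.1 ± 1.45 CPM in MEF2C hairpin cells and 129.8 ± 3.10 CPM in scramble cells, a log2 fold change of 0.21 (SE 0.0253) or 1.16-fold. With 7761 to 14710 reads per MEF2C hairpin library and 5641 to 8265 per scramble library, it had the smallest SE of the 9 tested members.

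**Figure D1:**
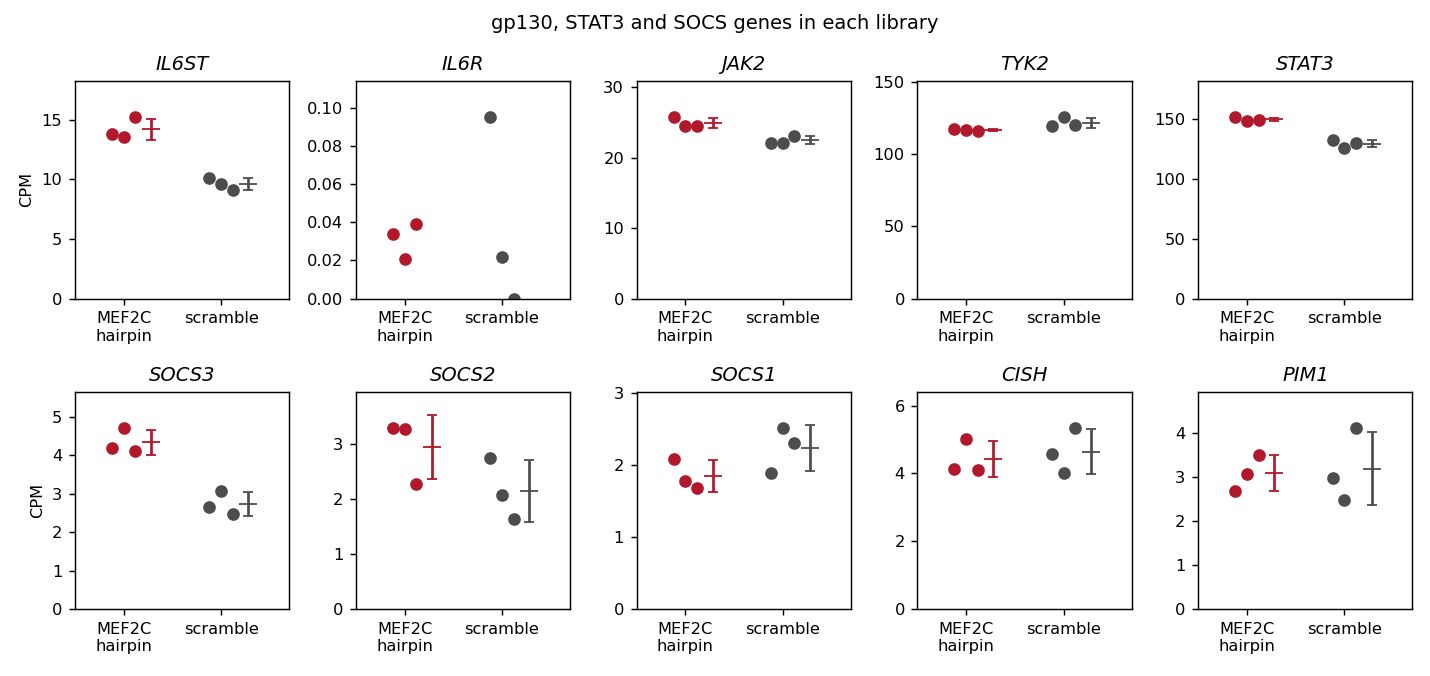
Level of each member in each library, in CPM with a separate vertical axis per gene; points are single libraries and the bar beside them their mean ± SD (not drawn for IL6R), MEF2C hairpin on the left and scramble on the right. IL6ST, JAK2, STAT3 and SOCS3 have all MEF2C hairpin points above all scramble points, TYK2 has them below, and SOCS1, SOCS2, CISH and PIM1 overlap.

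SOCS3 had the largest difference of the 9. It encodes an inhibitor that binds both gp130 and the JAK kinases, and the gene (ENSG00000184557.4) runs from 78356778 to 78360077 on the minus strand of chromosome 17. The level was 4.19, 4.71 and 4.10 CPM in MEF2C hairpin replicates 1 to 3, against 2.66, 3.07 and 2.49 CPM in scramble replicates 1 to 3. The lowest MEF2C hairpin library was above the highest scramble library. Means were 4.34 ± 0.329 CPM in MEF2C hairpin cells and 2.74 ± 0.300 CPM in scramble cells, a log2 fold change of 0.68 (SE 0.133) or 1.60-fold. The gene is not abundant, with 213 to 465 reads per MEF2C hairpin library and 137 to 166 reads per scramble library.

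SOCS2, best known as the inhibitor of growth hormone signalling, had a higher mean in the MEF2C hairpin cells but overlapping groups. The gene (ENSG00000120833.14, plus strand of chromosome 12, 93569814 to 93583487) measured 3.28, 3.27 and 2.27 CPM in MEF2C hairpin replicates 1 to 3, against 2.74, 2.06 and 1.63 CPM in scramble replicates 1 to 3. MEF2C hairpin replicate 3 was below scramble replicate 1. The means of 2.94 ± 0.580 CPM in MEF2C hairpin cells and 2.15 ± 0.559 CPM in scramble cells gave a log2 fold change of 0.46 (SE 0.173). That value was 0.69 without scramble replicate 1 and 0.29 without scramble replicate 3, so single libraries decide its size.

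SOCS1 and CISH had means that were lower in the MEF2C hairpin cells, with overlap between the groups. SOCS1, an inhibitor that acts directly on JAK kinases (ENSG00000185338.7, minus strand of chromosome 16, 11254405 to 11256200), measured 2.09, 1.77 and 1.68 CPM in MEF2C hairpin replicates 1 to 3, against 1.89, 2.51 and 2.30 CPM in scramble replicates 1 to 3. Its log2 fold change was -0.27 (SE 0.174), and it ran from -0.38 to -0.18 when single libraries were left out. CISH, an inhibitor induced through STAT5 (ENSG00000114737.16, minus strand of chromosome 3, 50606490 to 50611831), measured 4.13, 5.03 and 4.10 CPM in MEF2C hairpin replicates 1 to 3, against 4.57, 4.01 and 5.34 CPM in scramble replicates 1 to 3. The values of the groups interleave. Its log2 fold change of -0.07 (SE 0.124) ran from -0.18 to 0.05 when single libraries were left out, so its direction is not fixed. The gene with 4 STAT motifs in its start region was one of the 4 members whose groups overlapped. The part of the motifs in the members' levels was not tested.

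PIM1, a serine/threonine kinase that STAT3 and STAT5 are known to induce, did not separate the groups either. The gene (ENSG00000137193.14, plus strand of chromosome 6, 37170203 to 37175426) measured 2.69, 3.07 and 3.51 CPM in MEF2C hairpin replicates 1 to 3, against 2.98, 2.49 and 4.12 CPM in scramble replicates 1 to 3. Scramble replicate 3 held the highest value and scramble replicate 2 the lowest. Its log2 fold change of -0.06 (SE 0.155) ran from -0.20 to 0.16 with single libraries left out.

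With edgeR's quasi-likelihood test and Benjamini-Hochberg adjustment over all genes, 5 of the 9 tested members, namely IL6ST, JAK2, STAT3, SOCS2 and SOCS3, were past the threshold of 0.05 as higher, and TYK2, SOCS1, CISH and PIM1 were not past it. Over all 17677 genes 13.5% were past it as higher, 15.3% as lower and 28.8% in either direction. Since the set was chosen on this contrast, nothing is read from that count. It was 3 without MEF2C hairpin replicate 1, without MEF2C hairpin replicate 2 or without scramble replicate 2, where JAK2 and SOCS2 were no longer past the threshold. JAK2 was also lost without scramble replicate 1, and SOCS2 without scramble replicate 3 and with DESeq2, which left 4 in each case. Without MEF2C hairpin replicate 3, the library with the many reads aligned to more than 1 place, the log2 fold changes were 0.50 for IL6ST, 0.16 for JAK2, 0.21 for STAT3, 0.61 for SOCS2 and 0.71 for SOCS3. The groups did not overlap in 5 of the 9, which were 4 higher and 1 lower, against 39.9% of all tested genes.

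Among all tested genes, 94.5% had a smaller log2 fold change than SOCS3, 92.2% a smaller one than IL6ST and 78.1% a smaller one than STAT3. The corresponding shares were 89.9% for SOCS2, 72.5% for JAK2 and 35.7% for TYK2, with 34.8% for PIM1, 34.2% for CISH and 9.10% for SOCS1. The members thus spread from near the low end to near the high end of the genome-wide order. Their median log2 fold change was 0.15, against 0.00410 over all tested genes. Since the set was chosen on this contrast, nothing is read from these ranks or from that gap.

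Fold changes in this comparison moved with level. The median log2 fold change was 0.09 for genes of 1 to 5 CPM, which hold SOCS1, SOCS2, SOCS3, CISH and PIM1, and 0.04 for genes of 5 to 20 CPM, which hold IL6ST. It was -0.02 for genes of 20 to 100 CPM, which hold JAK2, and -0.05 for genes of at least 100 CPM, which hold STAT3 and TYK2. The share past the threshold as higher in these classes was 14.0%, 22.4%, 17.0% and 12.6%, in the same order. The part of level in the members' differences was not tested.

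**Figure D2:**
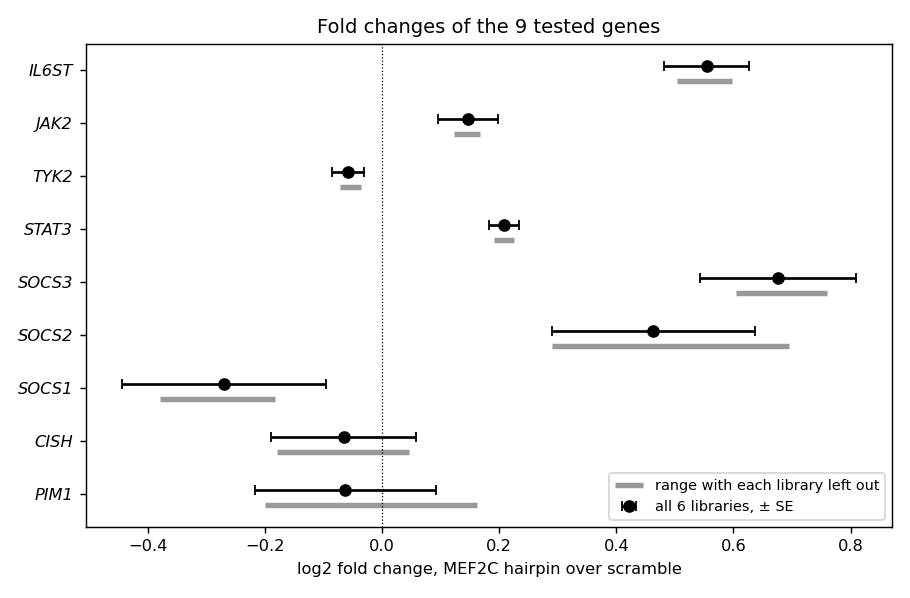
Log2 fold change of each of the 9 tested members, MEF2C hairpin over scramble, as black points with bars of ± 1 SE; the grey bar under each spans its values with single libraries left out. The grey bars of SOCS3, IL6ST, STAT3 and JAK2 lie to the right of 0, and that of SOCS2 runs from 0.29 to 0.69. Those of TYK2 and SOCS1 lie to the left of 0, and those of CISH and PIM1 cross 0.

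Divided by exon length, the levels of the 9 tested genes formed 3 tiers. Exon length here is the merged length of all annotated exons of a gene, not that of the transcripts expressed. The SDs do not cover error from this length. TYK2 had 17.2 ± 0.110 CPM per kilobase of exon in MEF2C hairpin cells and 17.9 ± 0.488 in scramble cells, and STAT3 had 17.0 ± 0.164 in MEF2C hairpin cells and 14.7 ± 0.352 in scramble cells. The gap between TYK2 and STAT3 was larger than the replicate spread in the scramble cells and smaller than the sum of the SDs in the MEF2C hairpin cells. JAK2 stood alone below them, at 4.04 ± 0.118 CPM per kilobase in MEF2C hairpin cells and 3.64 ± 0.0945 in scramble cells.

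The lower tier held gp130 itself beside the inhibitors. SOCS3 had 1.59 ± 0.120 CPM per kilobase in MEF2C hairpin cells and 1.00 ± 0.110 in scramble cells, and IL6ST had 1.53 ± 0.0961 in MEF2C hairpin cells and 1.04 ± 0.0553 in scramble cells. In both groups these neighbours differed by less than their spread. PIM1 had 1.04 ± 0.137 CPM per kilobase in MEF2C hairpin cells and 1.07 ± 0.281 in scramble cells, SOCS1 had 1.03 ± 0.120 in MEF2C hairpin cells and 1.24 ± 0.175 in scramble cells, and CISH had 0.864 ± 0.103 in MEF2C hairpin cells and 0.908 ± 0.130 in scramble cells. With this exon length SOCS3 and IL6ST were above PIM1, SOCS1 and CISH by more than the SDs in the MEF2C hairpin cells. They lay among them in the scramble cells. For CISH the merged exons hold 5112 bases of a gene that runs from 50606490 to 50611831, so they take in most of the gene. The order within this tier may depend on the length used and was not tested with another. SOCS2, at 0.434 ± 0.0856 in MEF2C hairpin cells and 0.317 ± 0.0825 in scramble cells, was the lowest tested member with this exon length.

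The members are not the most abundant genes of their families in this line. JAK1, the main kinase partner of gp130, had 31.7 CPM per kilobase in MEF2C hairpin cells and 32.6 in scramble cells, above TYK2 and JAK2. Of the other STATs, STAT5B had 20.8 CPM per kilobase in MEF2C hairpin cells and 20.5 in scramble cells, above STAT3. SOCS7 and SOCS4, which are less tied to cytokine feedback, had 16.6 and 14.3 CPM per kilobase in MEF2C hairpin cells, against 16.8 and 15.7 in scramble cells. Both were far above SOCS1, SOCS2, SOCS3 and CISH. PIM3, at 20.6 CPM per kilobase in MEF2C hairpin cells and 24.0 in scramble cells, was likewise far above PIM1.

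**Figure D3:**
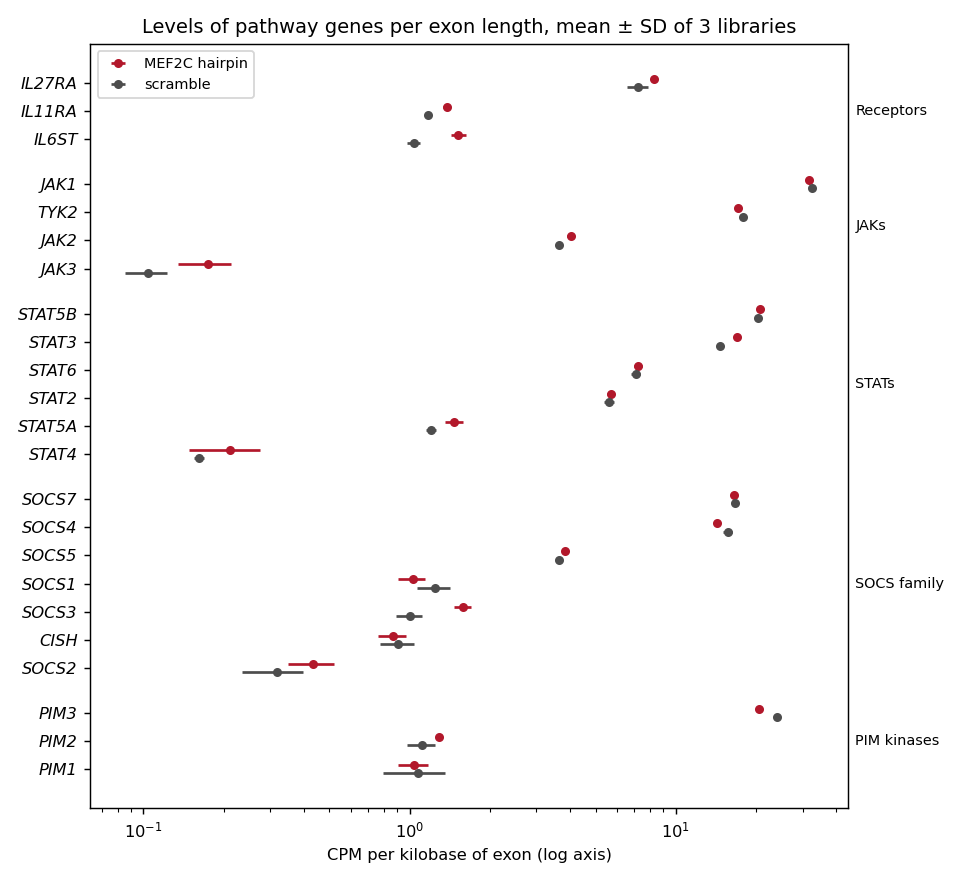
Level per kilobase of exon, in CPM per kilobase on a log axis, for the tested members and their relatives; points are means and bars the SD of 3 libraries, with MEF2C hairpin drawn above scramble for each gene. STAT3 and TYK2 lie near 17 in the MEF2C hairpin cells, IL6ST and SOCS3 between 1 and 2, and JAK1, STAT5B and PIM3 above all members.

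The other genes of the route were taken as 8 lists of 76 genes, of which 65 could be tested. With edgeR, 15 of the 65 rose in the MEF2C hairpin cells and 9 fell, which is 36.9% called against 28.8% of all tested genes. Their median log2 fold change was 0.07. All 8 lists were chosen with earlier results of these data known, so nothing is read from the share called. Of the 10 ligands that act through gp130, 4 could be tested. IL6 had 0 reads in all 6 libraries, with exact Poisson 95% upper limits of 0.0178 CPM in MEF2C hairpin cells and 0.0218 CPM in scramble cells. LIF had 7 reads over the MEF2C hairpin libraries and 3 over the scramble libraries. The most abundant ligand was CNTF, a neurotrophic cytokine, at 3.79 ± 0.408 CPM in MEF2C hairpin cells and 4.47 ± 0.101 CPM in scramble cells, which did not pass the test (edgeR adjusted p = 0.166). Per kilobase CNTF had 2.00 CPM in MEF2C hairpin cells and 2.36 in scramble cells, above IL6ST, but another gene overlaps 38.6% of its exon bases. CNTF is named after its values were seen. The 1 ligand called was IL11, at 0.332 ± 0.0758 CPM in MEF2C hairpin cells and 0.123 ± 0.0306 CPM in scramble cells (log2 fold change 1.37, SE 0.523, edgeR adjusted p = 0.0452). IL11, too, is named after its values were seen, and it kept the call in 2 of 12 alternatives, over which its adjusted p ran from 0.0438 to 0.149; every fit with 1 library left out lost it.

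Of the 5 chains that pair with gp130, 3 had too few reads to be tested. LIFR had 0 reads in MEF2C hairpin cells and 4 in scramble cells, OSMR had 0 in MEF2C hairpin cells and 1 in scramble cells, and CNTFR had 11 in MEF2C hairpin cells and 6 in scramble cells. IL27RA, the interleukin-27 receptor chain that signals with gp130 in T cells, was the most abundant partner. It rose to 24.5 ± 0.593 CPM in MEF2C hairpin cells, against 21.4 ± 1.97 CPM in scramble cells (log2 fold change 0.20, SE 0.0567, edgeR adjusted p = 0.00502). IL11RA had 5.88 ± 0.166 CPM in MEF2C hairpin cells and 5.01 ± 0.0768 CPM in scramble cells without passing the test (edgeR adjusted p = 0.0906), and other genes overlap 17.7% of its exon bases. Per kilobase IL27RA had 8.29 CPM in MEF2C hairpin cells and 7.23 in scramble cells, which is more than IL6ST.

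Of 4 genes for the shedding of receptors from the surface, 1 fell, against 15.3% of all tested genes. The gene that fell was ADAM10, a membrane protease that can cleave IL6R, at 369 ± 2.34 CPM in MEF2C hairpin cells and 449 ± 1.17 CPM in scramble cells (log2 fold change -0.28, SE 0.0200, edgeR adjusted p = 4.78e-14). ADAM17, the other such protease, had 55.2 ± 0.571 CPM in MEF2C hairpin cells and 57.2 ± 0.700 CPM in scramble cells and did not pass the test.

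Of the other JAKs and STATs, STAT5A and JAK3 rose. STAT5A had 8.47 ± 0.670 CPM in MEF2C hairpin cells and 6.93 ± 0.312 CPM in scramble cells (log2 fold change 0.28, edgeR adjusted p = 0.0170). JAK3, the kinase of the common gamma chain, had 1.19 ± 0.267 CPM in MEF2C hairpin cells and 0.708 ± 0.128 CPM in scramble cells (log2 fold change 0.76, edgeR adjusted p = 0.0211). Over the alternatives the adjusted p ran from 0.0104 to 0.0937 for STAT5A and from 0.0136 to 0.223 for JAK3. The STAT5A call was lost without MEF2C hairpin replicate 1, MEF2C hairpin replicate 3 or scramble replicate 2, and that of JAK3 without MEF2C hairpin replicate 2, scramble replicate 2 or scramble replicate 3. JAK1 had 199.96 ± 3.53 CPM in MEF2C hairpin cells and 206 ± 1.90 CPM in scramble cells (edgeR adjusted p = 0.152), and STAT5B had 134 ± 1.38 CPM in MEF2C hairpin cells and 132 ± 1.66 CPM in scramble cells (edgeR adjusted p = 0.501).

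In the list of other SOCS genes, PIAS genes, phosphatases and SH2B3, 3 of 13 tested were higher and 3 lower. That is 23.1% in each direction, against 13.5% and 15.3% of all tested genes. PTPN1, a phosphatase that acts on JAK2 and TYK2, fell to 129.7 ± 2.27 CPM in MEF2C hairpin cells, against 192 ± 2.09 CPM in scramble cells (log2 fold change -0.57, SE 0.0243, edgeR adjusted p = 2.37e-20). It had the largest decrease of the 65 genes. PTPN6, the phosphatase SHP1, rose to 89.2 ± 2.26 CPM in MEF2C hairpin cells, against 68.2 ± 0.712 CPM in scramble cells (log2 fold change 0.39, edgeR adjusted p = 1.10e-12). SH2B3, an adaptor that restrains JAK2, rose with a log2 fold change of 0.29 (edgeR adjusted p = 4.87e-08), and PTPRC, the phosphatase CD45, with 0.14 (edgeR adjusted p = 1.27e-06). SOCS4 and PTPN11, the other genes that fell, had log2 fold changes of -0.13 and -0.10 (edgeR adjusted p = 0.000455 and 0.000123). PTPN11 encodes SHP2, which links gp130 to RAS and so is not only a negative regulator.

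Of 7 genes of the ubiquitin ligase that SOCS proteins recruit, 1 fell, a share near the 15.3% of all tested genes that fell. This was CUL5, the scaffold of the ligase, which had 86.5 ± 3.16 CPM in MEF2C hairpin cells and 95.2 ± 2.77 CPM in scramble cells (log2 fold change -0.13, edgeR adjusted p = 0.000822). In the arm that leads from gp130 through SHP2 to RAS, 2 of 6 listed genes fell, against the same 15.3% of all tested genes. GAB1, SHC1, SOS1 and SOS2 were not called, with log2 fold changes of 0.10, -0.04, 0.02 and -0.01. PTPN11, the gene of SHP2 itself, was listed with the phosphatases above and also fell, by -0.10 on the log2 scale. It is named here after its value was seen. The adaptor GAB2 had 54.7 ± 2.41 CPM in MEF2C hairpin cells and 68.6 ± 0.664 CPM in scramble cells (log2 fold change -0.33, edgeR adjusted p = 2.28e-09), and GRB2 had 192 ± 1.28 CPM in MEF2C hairpin cells and 221 ± 4.09 CPM in scramble cells (log2 fold change -0.20, edgeR adjusted p = 5.37e-09).

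Of 22 genes described as STAT3 targets in other cells, 21 could be tested, 7 rose and 2 fell, which is 33.3% and 9.52% against 13.5% and 15.3% of all tested genes. Their median log2 fold change was 0.20. In the level classes from 1 CPM up, 12.6 to 22.4% of genes were called higher. This list was chosen with earlier results of these data known, so nothing is read from its shares. VEGFA, an angiogenic factor, rose to 64.5 ± 0.879 CPM in MEF2C hairpin cells, against 52.3 ± 2.10 CPM in scramble cells (log2 fold change 0.31, edgeR adjusted p = 1.35e-08). JUNB, a subunit of the AP-1 transcription factor, rose to 18.7 ± 0.736 CPM in MEF2C hairpin cells, against 14.7 ± 1.30 CPM in scramble cells (log2 fold change 0.35, edgeR adjusted p = 4.74e-05), and another gene overlaps 14.2% of its exon bases. HIF1A, the hypoxia-induced factor, rose by 0.10 on the log2 scale (edgeR adjusted p = 0.00214).

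The other 4 target genes that rose were BATF, FOS, CEBPD and BCL2L1, named after their values were seen. Their log2 fold changes were 0.58, 0.27, 0.81 and 0.07. Adjusted p-values from edgeR were 0.00481, 0.00537, 0.00778 and 0.0466, and another gene overlaps 43.0% of the exon bases of BCL2L1. The call of CEBPD was lost without MEF2C hairpin replicate 1 or scramble replicate 1, and that of BCL2L1 was kept in 6 of 13 alternatives, being lost without MEF2C hairpin replicate 2, without any 1 of the scramble replicates, with no filter, with the replicate block and with DESeq2. PIM3, a relative of PIM1, fell to 50.8 ± 0.975 CPM in MEF2C hairpin cells, against 59.0 ± 0.245 CPM in scramble cells (log2 fold change -0.22, edgeR adjusted p = 7.07e-06). CEBPB, also named after its values were seen, had a log2 fold change of -0.13 (edgeR adjusted p = 0.00797), and its call was lost without MEF2C hairpin replicate 2. MYC and MCL1, abundant targets with a role in leukemia cell growth and survival, had log2 fold changes of 0.02 and -0.01 (edgeR adjusted p = 0.616 and 0.895).

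**Figure D4:**
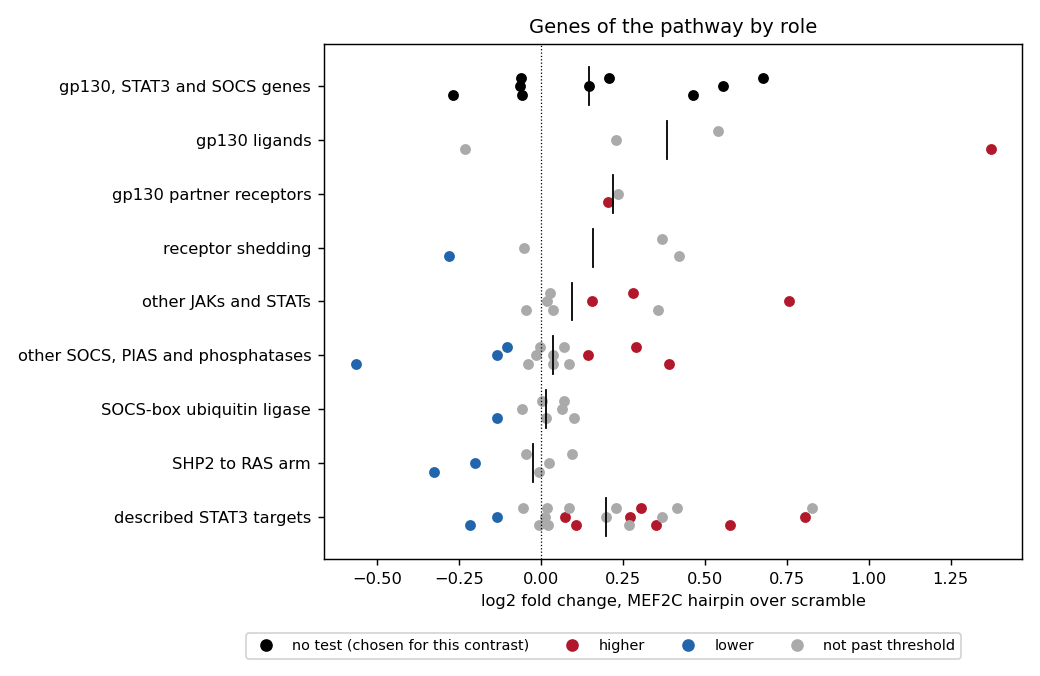
Log2 fold change, MEF2C hairpin over scramble, of every tested gene of the route, 1 row per list with the 9 tested members as black points in the top row; colour marks genes called higher or lower by edgeR, and vertical lines are the medians. Calls in both directions occur among the phosphatases and the described STAT3 targets, and the lowest point is PTPN1 at -0.57.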

How the data were processed

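RNA sequencing was done on 3 MEF2C hairpin and 3 scramble libraries of Karpas-45. Per the labels' protocols, TRIzol was used to extract total RNA and TruSeq to make libraries. Strand setting and annotation release are not given in the sources used here. Reads were handled with Trim Galore, STAR and HTSeq on hg38, per the submitters' processing notes. The authors deposited raw read counts, 1 whole number per gene and library, without scaling. Lines that name no gene took 19.2 to 31.4% of the reads and stayed out of totals and tests; gene totals ran from 45560303 to 97077335 reads, so 3 reads correspond to 0.0309 to 0.0658 CPM.

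Symbols matched 77.9% of the 78932 identifiers, and positions, exon lengths and exon overlaps came from GENCODE 29 on GRCh38. Genes were kept by filterByExpr (minimum count 10), scaled by TMM and fitted with edgeR 4.0.16 (quasi-likelihood, robust, R 4.3.3), with group as the only term, a threshold of 0.05 on Benjamini-Hochberg adjusted p, and SE taken as the size of the log2 fold change divided by the root of the F statistic. Fold changes are MEF2C hairpin over scramble. The common coefficient of variation was 0.0324, and the chi-square per gene between replicates was 3.31 to 4.46, so none was a repeat deposit. The test was tried on simulated counts first.

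The members, lists and rules were chosen with earlier results of these data known. Named are all 10 members, up to 4 called genes per pathway list with the smallest adjusted p and at least 1 CPM, and always some further JAKs and STATs, among them JAK1, JAK3, STAT5A and STAT5B; a gene that this rule names is not reported here; other named genes were picked after their values were seen. Alternatives were scaling by DESeq2 size factors or upper quartiles, a stricter filter or none, DESeq2 1.42.0, limma-voom (limma 3.58.1), a replicate block and leaving out each library. The shorter and wider motif spacings were added after seeing the data.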

Additional observations from a re-analysis of the deposited data

How the results depend on the processing

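The log2 fold changes of IL6ST, STAT3 and SOCS3, on which the set was chosen, were 0.50 to 0.60, 0.19 to 0.22 and 0.60 to 0.76 when single libraries were left out, which is no independent support. The number of members past the threshold as higher ran from 3 to 5 over those fits and was 4 with DESeq2. In the 13 alternatives no value past the threshold changed sign. Over all genes 4113 to 5082 were called in the alternatives, against 5097, and 20 to 25 of the pathway genes, against 24. Upper-quartile scaling gave 2549 higher and 2454 lower genes, against 2386 and 2711 with TMM. With a replicate block 4892 genes and 22 pathway genes were called; samples with the same replicate number deviated together with correlations of -0.0204, -0.00242 and 0.0666 over 13045 genes, so the numbers do not pair the samples. JAK3 and IL11 could not be tested under the stricter filter. The depth left IL6R, 6 of 10 ligands and 3 of 5 partner chains untested. All values come from 1 line, 1 hairpin and technical replicates.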

Other observations

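Transcripts next to the members or copied from them were counted as well, after the values of the members had been seen. SOCS3-DT, a non-coding gene that starts beside SOCS3 in the opposite direction, had 7, 23 and 12 reads in MEF2C hairpin replicates 1 to 3, against 1, 3 and 11 reads in scramble replicates 1 to 3. The ranges overlap, and the log2 fold change of 1.11 did not pass the test (edgeR adjusted p = 0.225). IL6ST-DT, which starts beside IL6ST, had 17 reads over the MEF2C hairpin libraries and 14 over the scramble libraries. SOCS2-AS1, whose exons overlap 4.09% of the exon bases of SOCS2, had 115 reads in MEF2C hairpin cells and 101 in scramble cells, with a log2 fold change of -0.19 (edgeR adjusted p = 0.728). The pseudogenes IL6STP1, SOCS2P1 and SOCS2P2 and the antisense gene IL6R-AS1 had 0 reads in all 6 libraries.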
